A study of Mus musculus with 9 samples.

Results

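Messenger RNA was profiled in mouse embryonic stem (ES) cells to ask which genes moved the same way after transfection with either of a pair of microRNA mimics. All 9 arrays came from ES cells of genotype Dgcr8 -/-, which lack a protein needed to process most microRNA precursors, and all cells spent the 12 h between transfection and harvest without leukaemia inhibitory factor (LIF). Of these arrays, 3 came from cells given a let-7c mimic, 3 from cells given a miR-294 mimic (each at 50 nM), and 3 from mock transfected cells. No group of the series received a control mimic of unrelated sequence, so what a transfected RNA duplex does as such and what a given seed does cannot be told apart here. The labels describe the arrays of a group as biological replicates. The sources used here do not give the number of ES cell clones, the use of feeder cells or the deleted part of Dgcr8.

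The genes described are those for which all 6 mimic arrays lay above, or all 6 lay below, all 3 mock arrays. There were 1764 of them among 13182 tested genes (13.4%). Of these, 895 lay above mock (6.79% of the tested genes) and 869 lay below it (6.59%). Before dim genes were left out, 2101 of 19938 named genes met the rule, and the 337 that were dim are not described. Values are deposited GCRMA intensities taken as log2, so a difference of 1 is a 2-fold change. A pooled difference is the mean of the let-7c and miR-294 group means minus the mock mean, ± its standard error in a limma fit of all 9 arrays, with p-values adjusted over all 13182 genes by the Benjamini-Hochberg method. The rule and this test read the same arrays, so the test is no independent check of the rule.

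A microRNA guides an Argonaute protein to messenger RNAs that hold a match to its seed, the bases 2 to 8 from its 5′ end, and lowers their stability and translation. ES cells make much miR-294 and its relatives of the miR-290 cluster, which promote rapid cycling, whereas let-7 microRNAs accumulate as cells differentiate. In mouse ES cells, Nodal signalling through Smad2 maintains the genes of its own inhibitors Lefty1 and Lefty2, while FGF signalling through the MAPK cascade induces immediate early genes and its own inhibitors of the Sprouty and Dusp families.

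The mature sequences of the mimicked microRNAs are shown because the genes described moved the same way with both, and the seeds differ. They are RefSeq's entries on build GRCm38.p6, with let-7c encoded at chr16:77599672-77599693 and chr15:85706616-85706637 and miR-294 (the 3p arm) at chr7:3220691-3220712, all on the plus strand. The labels do not give the mimics' own sequences. Capitals mark the seed.
let-7c: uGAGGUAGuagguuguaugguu
miR-294: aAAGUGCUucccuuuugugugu
The seeds carry the same base at 2 of their 7 positions, and a site complementary to them reads CUACCUC for let-7c and AGCACUU for miR-294.

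The shared genes moved by small amounts. The median pooled difference was 0.19 for those above mock and -0.24 for those below, against 0.01 over all tested genes. With the mimic that moved the gene less, 5 genes still rose and 15 still fell by at least 0.5 on the log2 scale, and only Lefty1 and Hif1an reached 2-fold. In the limma fit, 1558 genes were called higher with the mimics together (11.8%) and 1969 lower (14.9%), at an adjusted p under 0.05. Of the shared genes, 737 above and 786 below mock were called, 0 were called against their direction and 241 were not called. The other 2004 called genes were not shared, because the 6 mimic arrays did not all lie on 1 side of the mock arrays. Dazap2, with a pooled difference of -1.16, is such a gene: it differed from mock by 0.04 with let-7c and by -2.36 with miR-294. Trim71, an RNA-binding protein gene and let-7 target, differed by -1.52 with let-7c and by 0.37 with miR-294. Counts of higher calls depended on the mock arrays: 949 were called without mock replicate 2 and 1015 without mock replicate 3.

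Beside this rule stand a few genes at its edge. Just inside were Ndufb8 (0.13), Krt75 (0.17), Tjp1 (-0.12) and Ccdc8 (-0.19), and just outside were Abhd17b (0.17), Snrpd2 (0.12), Prdx2 (-0.08) and Eps15l1 (-0.10), all as pooled log2 differences. On its used probe set, each member counts once. For 114 shared genes there were 177 further probe sets, of which 155 had a difference of the same sign, 89 met the rule in the same direction and 1 met it in the opposite direction.

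Hmox1, which encodes the haem-degrading stress enzyme haem oxygenase 1, rose more than any other shared gene. It read 12.05, 12.19 and 12.30 with let-7c, 11.63, 11.78 and 11.72 with miR-294, and 10.74, 10.81 and 10.77 with mock. No array of one group overlapped another group. The pooled difference was 1.17 ± 0.06 (adjusted p = 6.09e-07), a 2.25-fold rise, and the rise was larger with let-7c by 0.47 (95% interval 0.33 to 0.62, adjusted p = 9.79e-05). The transcription factor Nrf2 controls Hmox1 and other antioxidant genes. Of 34 tested genes of that list, 2 lay above and 2 below mock (5.88% each, near the 6.79% and 6.59% of all tested genes). In the fit 7 were called higher (20.6%, against 11.8%) and 4 lower (11.8%, against 14.9%). The mimics stood apart on this list. With let-7c, 12 were called higher and 3 lower (against 13.9% and 14.8% of all tested genes), at a median of 0.10. With miR-294, 4 were called higher and 11 lower (against 20.7% and 21.1%), at a median of -0.06. Bach1, a repressor of Hmox1, fell by 0.43 with let-7c and by 0.13 with miR-294 (pooled adjusted p = 0.000516), and the glutathione reductase gene Gsr fell as well (-0.20, adjusted p = 0.00765). The cystine transporter gene Slc7a11, another Nrf2 target, was not shared: it differed from mock by 1.10 with let-7c and by 0.07 with miR-294. Among 16 tested iron genes, Fth1, the ferritin heavy chain, rose (0.27) and Tfrc, the transferrin receptor, fell (-0.33). No other was shared, so 6.25% lay on each side of mock, near the 6.79% and 6.59% of all tested genes. Tfrc differed from mock by -0.13 with let-7c and by -0.53 with miR-294. The fit called 1 iron gene higher (6.25%, against 11.8%) and 5 lower (31.25%, against 14.9%), with 3 lower without mock replicate 3.

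The neurofilament genes Nefm and Nefl, which encode intermediate filament subunits of neurons, rose together. They are next to each other among the tested genes in RefSeq's order (GRCm38.p6). Nefm read 8.38, 8.35 and 8.32 with let-7c, 8.12, 8.13 and 7.98 with miR-294, and 7.48, 7.45 and 7.23 with mock (pooled 0.83 ± 0.06, adjusted p = 6.93e-06). Nefl read 10.53, 10.51 and 10.53 with let-7c, 10.55, 10.59 and 10.40 with miR-294, and 9.98, 9.95 and 9.74 with mock (0.63 ± 0.06, adjusted p = 4.25e-05). For Nefl the mimic arrays overlapped one another, with a let-7c minus miR-294 difference of 0.01 (95% interval -0.14 to 0.16), while Nefm rose further with let-7c. Of 10 tested neurectoderm markers, Six3 (0.20) and Hes5 (0.15) lay above mock (20%, against 6.79% of all tested genes). The neuronal tubulin gene Tubb3 (-0.38) lay below it (10%, against 6.59%). The call for Six3 ended without mock replicate 2 (adjusted p = 0.0781). That for Hes5 ended without any 1 of the 3 mock arrays and under 4 other settings, with a highest adjusted p of 0.0951.

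Wdr45 encodes a protein of autophagosome formation. It read 10.19, 10.41 and 10.49 with let-7c, 10.03, 10.26 and 10.10 with miR-294, and 9.40, 9.53 and 9.39 with mock (pooled 0.81 ± 0.07, adjusted p = 2.75e-05). Of 38 tested lysosome and autophagy genes, 8 lay above mock (21.1%, against 6.79% of all tested genes) and 0 below it, a count of 4 below without mock replicate 3. The 8 were Tfe3, a transcription factor for lysosomal genes (0.32), the proteases Ctsd (0.20), Ctsl (0.26) and Ctsz (0.16), the glycosidase Hexa (0.36), the proton pump subunit Atp6v0d1 (0.23) and the autophagy genes Map1lc3b (0.34) and Atg5 (0.18). Over the list, 12 genes were called higher (31.6%, against 11.8% of all tested genes) and 3 lower (7.89%, against 14.9%). There were 5 lower calls without mock replicate 3. The list's median pooled difference was 0.06. Hexa read 10.52, 10.42 and 10.54 with let-7c, 10.43, 10.28 and 10.31 with miR-294, and 10.05, 10.08 and 10.03 with mock, so the mimic groups overlapped each other and not mock. The call for Ctsl ended without mock replicate 2 or mock replicate 3 (highest adjusted p = 0.071). The list's median was 0.15 with let-7c and -0.02 with miR-294, with the mock arrays shared by these comparisons. With let-7c, 17 of its genes were called higher and 3 lower (against 13.9% and 14.8% of all tested genes), and with miR-294 8 higher and 9 lower (against 20.7% and 21.1%).

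**Figure D1:**
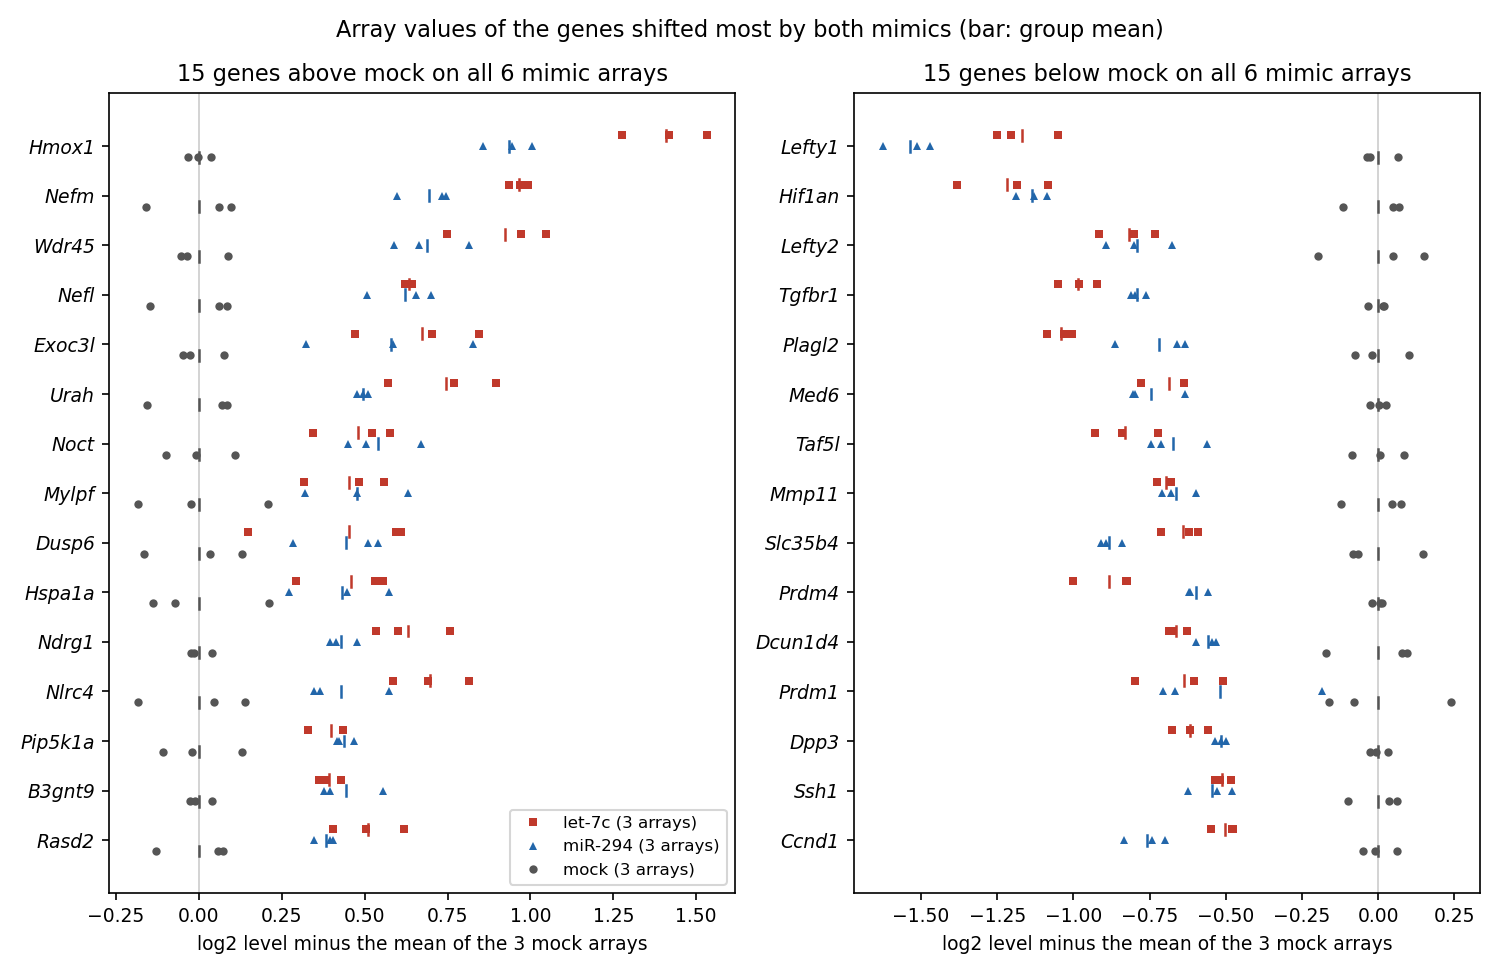
The 15 shared genes furthest above mock and the 15 furthest below it, ranked by the mimic that moved the gene less. Each symbol is 1 array (squares let-7c, triangles miR-294, circles mock), the short bars are group means, and the horizontal axis is the log2 level minus the mock mean. Hmox1 (pooled 1.17), Lefty1 (-1.35) and Hif1an (-1.18) stand furthest from mock, and no mimic array overlaps mock in any of the 30 genes.

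The rest of the 15 genes that rose most had pooled differences of 0.42 to 0.63. Noct encodes nocturnin, a rhythmically expressed protein. It read 9.43, 9.61 and 9.66 with let-7c, 9.53, 9.75 and 9.59 with miR-294, and 9.07, 9.19 and 8.98 with mock (0.51 ± 0.07, adjusted p = 0.000363). Urah, which encodes a urate pathway hydrolase, rose by 0.62, Ndrg1, a stress- and hypoxia-responsive gene, by 0.53, and the inflammasome gene Nlrc4 by 0.56. Each of these rose further with let-7c than with miR-294. Exoc3l (0.63), the muscle myosin light chain gene Mylpf (0.46), the lipid kinase gene Pip5k1a (0.42), the glycosyltransferase gene B3gnt9 (0.42) and the small GTPase gene Rasd2 (0.45) rose without a called difference between the mimics. For Pip5k1a the let-7c minus miR-294 difference was -0.04 (95% interval -0.17 to 0.10), and for Exoc3l it was 0.09 (-0.17 to 0.35).

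Hspa1a, the inducible Hsp70 chaperone gene, read 8.21, 7.97 and 8.23 with let-7c, 8.25, 7.95 and 8.12 with miR-294, and 7.54, 7.60 and 7.89 with mock. Mock replicate 3 lay nearest to the mimic arrays, 0.06 below the lowest of them. The pooled difference was 0.45 ± 0.09 (adjusted p = 0.00443). Among 13 tested heat shock and metallothionein genes, 1 was called higher, Hspa1a (7.69%, against 11.8% of all tested genes). That count was 3 with the replicate number as a block in the fit (the replicate block). Among 20 endoplasmic reticulum stress genes, the co-chaperone gene Dnajb9 fell (-0.70) and Herpud1 rose (0.27). These were the called ones (5% each, against 11.8% higher and 14.9% lower of all tested genes). The lower calls numbered 6 with the replicate block, 8 with an intensity trend and robust prior, and 4 with a stricter filter on dim values or without mock replicate 1. Without that array 7 lay below mock instead of 2 (10%, against 6.59% of all tested genes). With let-7c alone, 1 of the 20 was called higher and 1 lower (against 13.9% and 14.8%). With miR-294 alone, 1 was called higher and 10 lower (against 20.7% and 21.1%). Among 32 ATF4 and amino acid stress genes, only Atf3 was shared (0.27, adjusted p = 0.00871), while 7 were called higher (21.9%, against 11.8% of all tested genes), a count of 13 with the replicate block and of 3 without mock replicate 2 or mock replicate 3. The mimics stood apart on these stress genes. Let-7c gave 2 higher and 7 lower calls (against 13.9% and 14.8% of all tested genes), with a median difference of -0.04. The calls with miR-294 were 20 higher and 3 lower (against 20.7% and 21.1%), with a median of 0.26.

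Of 37 matched RNA sensor and interferon-stimulated genes, 24 passed the filter on dim values. Of these, 2 were called higher (8.33%, against 11.8% of all tested genes) and 11 lower (45.8%, against 14.9%). On all mimic arrays 1 lay above and 1 below mock. The higher calls numbered 0 without mock replicate 2 and 1 without mock replicate 1 or 3. Ddx58, which encodes the RNA sensor RIG-I, lay above mock at 10.26, 10.38 and 10.49 with let-7c and 10.16, 10.25 and 10.22 with miR-294, against 10.08, 10.08 and 10.12 with mock. Its pooled difference of 0.20 ± 0.05 (adjusted p = 0.0135) missed the threshold without mock replicate 2 (adjusted p = 0.0552). Rsad2, which encodes the antiviral enzyme viperin, fell (-0.31 ± 0.06, adjusted p = 0.00218). The list's median difference was 0.01 with let-7c and -0.18 with miR-294.

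Immediate early genes, which growth factor and stress signals induce within minutes, lay above mock in 6 of 26 tested cases (23.1%, against 6.79% of all tested genes) and below it in 0. In the fit, 13 were called higher (50%, against 11.8%) and 1 lower. Without mock replicate 3, 7 were called higher, and with the replicate block 2 were called lower. The higher calls were mostly those of let-7c, which alone gave 15 higher and 0 lower (against 13.9% and 14.8% of all tested genes). With miR-294 alone, 5 were called higher and 4 lower (against 20.7% and 21.1%). The list's median difference was 0.27 with let-7c and 0.07 with miR-294. Egr1, a zinc finger transcription factor gene of this class, read 8.70, 8.82 and 9.13 with let-7c, 8.11, 8.07 and 8.13 with miR-294, and 7.99, 8.04 and 7.84 with mock. Its rise was mostly that of let-7c: 0.93 against 0.15 with miR-294, with a difference of 0.78 between the mimics (95% interval 0.57 to 0.98, adjusted p = 3.42e-05). Fosl1 (0.29) rose, and Srf (0.14), the serum response factor gene, was called but lost its call under 7 alternatives (highest adjusted p = 0.11). Egr2 (0.16) and Egr3 (0.09) lay above mock without passing the test. Fos was called (0.43) but was not shared, at 0.78 with let-7c and 0.08 with miR-294.

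Dusp6, a phosphatase gene induced by the kinase ERK that its product inactivates, read 10.49, 10.94 and 10.95 with let-7c, 10.62, 10.88 and 10.85 with miR-294, and 10.17, 10.47 and 10.37 with mock. Let-7c replicate 1 stood 0.02 above the highest mock array, and replicate 1 was the lowest array in each group. The pooled difference was 0.45 ± 0.11 (adjusted p = 0.00994), and it missed the threshold without mock replicate 1 (adjusted p = 0.0511). The let-7c minus miR-294 difference was 0.01 (95% interval -0.26 to 0.28).

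Ras-MAPK genes had the largest share above mock among the lists with at least 10 tested genes, with 7 of 25 (28%), while 2 lay below. In the fit, 11 were called higher (44.0%, against 11.8% of all tested genes) and 4 lower (16%, against 14.9%). With let-7c alone, 5 were called higher and 4 lower (against 13.9% and 14.8% of all tested genes). With miR-294 alone, 12 were called higher and 4 lower (against 20.7% and 21.1%). Those above mock include Dusp6, the Sprouty genes Spry2 and Spry4 (0.43 and 0.25) and their relative Spred1 (0.17), whose products inhibit the cascade. Spry2 read 10.46, 10.65 and 10.63 with let-7c, 10.79, 10.98 and 10.87 with miR-294, and 10.27, 10.37 and 10.25 with mock, and it rose further with miR-294. The kinase gene Map2k2 (0.29) and the adaptor gene Grb2 (0.19) rose too, and Araf (0.09) lay above mock without passing the test. The genes below mock were Sos1 and Sos2, which encode the exchange factors that load Ras with GTP. Sos1 differed from mock by -0.13 with let-7c and -0.90 with miR-294, and Sos2 by -0.08 and -0.63, so both stood close to mock on the let-7c arrays.

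Lefty1 and Lefty2, the secreted Nodal inhibitors, fell with both mimics. Lefty1 read 9.66, 9.50 and 9.46 with let-7c, 9.24, 9.08 and 9.19 with miR-294, and 10.67, 10.77 and 10.68 with mock. The pooled difference was -1.35 ± 0.05 (adjusted p = 4.87e-07), a 2.56-fold fall that was deeper with miR-294 by 0.37 (95% interval 0.23 to 0.51, adjusted p = 0.000459). Its neighbour Lefty2 read 9.12, 9.31 and 9.24 with let-7c, 9.24, 9.36 and 9.15 with miR-294, and 9.84, 10.19 and 10.09 with mock (-0.80 ± 0.08, adjusted p = 4.37e-05). The Lefty2 values of the mimics overlapped fully, with a difference of -0.03 (95% interval -0.22 to 0.17). Lefty1 and Lefty2 are close in sequence, and how far their probes tell them apart was not tested.

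Tgfbr1, which encodes the type I receptor for TGF-beta and a relative of the Nodal receptor, read 8.40, 8.53 and 8.47 with let-7c, 8.64, 8.69 and 8.66 with miR-294, and 9.42, 9.47 and 9.47 with mock. Its arrays fell into 3 separate ranges, with let-7c lowest (pooled -0.89 ± 0.04, adjusted p = 5.35e-07). Smad2, the transcription factor that these receptors activate, fell by 0.15 with let-7c and by 0.53 with miR-294 (pooled adjusted p = 0.00033). The Smad inhibitor genes Smad6 (-0.21) and Skil (-0.28) fell too, and the ligand gene Tgfb1 (0.21) rose. In all, 6 of 32 tested genes of TGF-beta, Nodal and BMP signalling lay below mock (18.8%, against 6.59% of all tested genes) and 2 above (Tgfb1 and Smad4, the latter at 0.07 without passing the test). The fit called 9 lower (28.1%, against 14.9% of all tested genes) and 3 higher (9.38%, against 11.8%). With let-7c alone, 8 were called higher and 9 lower (against 13.9% and 14.8% of all tested genes). With miR-294 alone, 5 were called higher and 13 lower (against 20.7% and 21.1%). The list's median difference was -0.002 with let-7c and -0.09 with miR-294. Nodal itself did not pass the pooled test (0.00), since it stood at -0.19 with let-7c and 0.20 with miR-294. The activin subunit gene Inhbb fell (-0.46 ± 0.10, adjusted p = 0.00765) and the activin antagonist gene Fst rose (0.47 ± 0.06, adjusted p = 0.000364), both chosen after their values were seen.

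**Figure D2:**
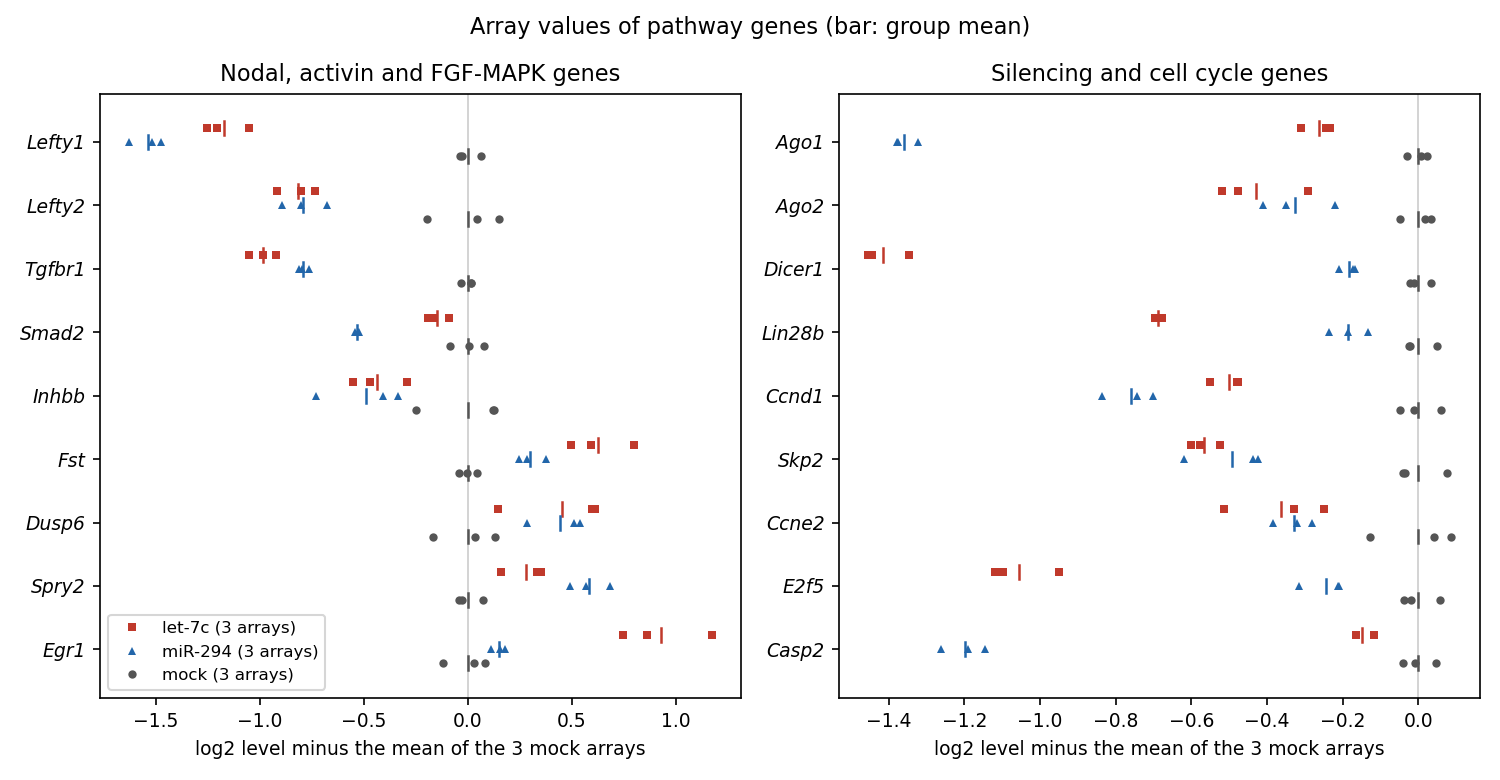
Array values of signalling genes (left) and of silencing and cell cycle genes (right), as log2 level minus the mock mean, with 1 symbol per array (squares let-7c, triangles miR-294, circles mock) and bars at the group means. Lefty2 (-0.82 with let-7c and -0.79 with miR-294), Skp2 (-0.57 and -0.49) and Ccne2 (-0.36 and -0.33) had close means with the mimics, while Ago1 (-0.26 and -1.36), Dicer1 (-1.42 and -0.18) and Casp2 (-0.15 and -1.2) lay below mock with both but mostly through 1 mimic.

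Hif1an, which encodes the oxygen-dependent hydroxylase that inhibits the hypoxia factor HIF-1, had the largest shared fall after Lefty1. It read 8.72, 9.01 and 8.91 with let-7c, 8.91, 9.01 and 8.97 with miR-294, and 9.98, 10.15 and 10.16 with mock (-1.18 ± 0.07, adjusted p = 1.62e-06). The mimic arrays overlapped each other, with a difference of -0.08 (95% interval -0.25 to 0.09). Of 16 tested hypoxia genes, Ndrg1 and Higd1a (0.30) lay above mock (12.5%, against 6.79% of all tested genes) and 0 below. In each direction 4 were called (25%, against 11.8% higher and 14.9% lower of all tested genes). Without 1 mock array the higher calls numbered 2, and the lower calls 2 without mock replicate 1 or 2 and 3 without mock replicate 3, where 2 genes lay below mock. Of 18 glycolysis genes, Aldoc (0.40) and Ldha (0.19) lay above mock (11.1%, against 6.79% of all tested genes). Eno3 (-0.19) lay below it (5.56%, against 6.59%). The fit called 4 higher (22.2%, against 11.8%) and 2 lower (11.1%, against 14.9%), with 2 higher without mock replicate 2 or 3. The call for Ldha ended without mock replicate 2 or mock replicate 3 among other settings (highest adjusted p = 0.108), and that for Eno3 without mock replicate 1 (adjusted p = 0.0765).

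The other genes that fell most include several nuclear factors. Plagl2, a zinc finger factor gene, read 8.07, 7.99 and 8.04 with let-7c, 8.21, 8.44 and 8.42 with miR-294, and 9.00, 9.05 and 9.18 with mock (-0.88 ± 0.06, adjusted p = 4.67e-06). Med6, a subunit of the Mediator complex, read 9.64, 9.78 and 9.78 with let-7c, 9.62, 9.79 and 9.62 with miR-294, and 10.39, 10.45 and 10.42 with mock (-0.72 ± 0.05, adjusted p = 6.87e-06). The mimic groups were apart for Plagl2 and overlapped for Med6, where the difference was 0.06 (95% interval -0.07 to 0.19). Taf5l, a subunit of a histone acetyltransferase complex (-0.75), the zinc finger gene Prdm4 (-0.74) and Prdm1, which encodes the repressor Blimp1 (-0.58), fell as well. For Prdm1, miR-294 replicate 1 (8.60) stood only 0.02 below the lowest mock array.

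The remaining large falls were in other classes of gene. Mmp11 encodes a matrix metalloproteinase and read 8.93, 8.88 and 8.92 with let-7c, 9.01, 8.93 and 8.90 with miR-294, and 9.68, 9.49 and 9.65 with mock (-0.68 ± 0.05, adjusted p = 7.97e-06). The sugar nucleotide transporter gene Slc35b4 (-0.76), the peptidase gene Dpp3 (-0.57), the cofilin phosphatase gene Ssh1 (-0.53) and Dcun1d4, a gene of cullin modification (-0.61), fell too. Slc35b4 fell further with miR-294 and Prdm4 further with let-7c, whereas Mmp11, Ssh1 and Dcun1d4 had no called difference between the mimics. For Ssh1 that difference was 0.03 (95% interval -0.09 to 0.15).

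MicroRNA biogenesis and silencing genes lay below mock in 7 of 30 tested cases (23.3%, against 6.59% of all tested genes) and above it in 0. The limma fit called 14 lower (46.7%, against 14.9% of all tested genes) and 0 higher (against 11.8%). At an unadjusted p under 0.05, 15 were lower and 1 higher, and with the replicate block 1 was called higher. With let-7c alone, 0 were called higher and 12 lower (against 13.9% and 14.8% of all tested genes). With miR-294 alone, 5 were called higher and 13 lower (against 20.7% and 21.1%). Ago2, the Argonaute that can cut its target, read 10.83, 10.60 and 10.65 with let-7c, 10.90, 10.71 and 10.77 with miR-294, and 11.15, 11.07 and 11.14 with mock (-0.38 ± 0.06, adjusted p = 0.000951). The mimic groups overlapped for Ago2, but they were far apart for its relative Ago1, which read 10.51, 10.57 and 10.58 with let-7c, 9.49, 9.44 and 9.44 with miR-294, and 10.79, 10.84 and 10.82 with mock. Dicer1 was the mirror image: it differed from mock by -1.42 with let-7c and by -0.18 with miR-294, a difference of -1.23 (95% interval -1.33 to -1.13, adjusted p = 9.97e-09). Lin28b, whose protein blocks let-7 maturation, fell by 0.69 with let-7c and by 0.18 with miR-294. Tnrc6c, the partner of Argonaute (-0.31), the exonuclease gene Xrn1 (-0.25) and the uridylyltransferase gene Tut4 (-0.27) completed the 7.

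Of the genes that carry cells from G1 into S phase, 5 of 32 tested lay below mock (15.6%, against 6.59% of all tested genes) and 1 above. Ccnd1, the cyclin D1 gene, read 10.49, 10.56 and 10.56 with let-7c, 10.20, 10.34 and 10.30 with miR-294, and 11.03, 11.10 and 10.99 with mock (-0.63 ± 0.04, adjusted p = 6.51e-06). It fell further with miR-294. Skp2, the ubiquitin ligase subunit that removes the inhibitor p27, read 9.50, 9.58 and 9.53 with let-7c, 9.48, 9.68 and 9.67 with miR-294, and 10.07, 10.18 and 10.06 with mock (-0.53 ± 0.05, adjusted p = 5.59e-05), with overlapping mimic groups. Ccne2 (-0.35) and Ccna2 (-0.22) fell as well. E2f5 differed from mock by -1.06 with let-7c and by -0.25 with miR-294, and Tfdp1, a partner of E2F factors, rose (0.18). The fit called 11 genes of the list lower (34.4%, against 14.9% of all tested genes) and 3 higher. Taken apart, let-7c gave 1 higher and 19 lower calls in the list, and miR-294 10 higher and 7 lower. Over all tested genes, the shares were 13.9% higher and 14.8% lower with let-7c, and 20.7% and 21.1% with miR-294. Of 16 tested inhibitors of that transition, 0 were shared. With the mimics together, 7 were called lower (43.8%, against 14.9% of all tested genes) and 1 higher (6.25%, against 11.8%). With let-7c 3 inhibitors were called higher and 0 lower, and with miR-294 0 higher and 11 lower.

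Mitosis genes lay below mock in 8 of 32 tested cases (25%, against 6.59% of all tested genes) and above it in 0, a count of 4 below after quantile normalization. The limma fit called 13 lower (40.6%, against 14.9%) and 0 higher, with 6 lower without mock replicate 2 and 7 without mock replicate 3. At an unadjusted p under 0.05, 18 were lower and 2 higher, and with the replicate block 1 was called higher. More of the list fell with miR-294, which alone gave 3 higher and 18 lower calls (against 20.7% and 21.1% of all tested genes). Let-7c alone gave 3 higher and 7 lower (against 13.9% and 14.8%). The list's median difference was -0.18 with miR-294 and -0.02 with let-7c. The kinesin genes Kif2c (-0.19) and Kif11 (-0.19) fell, with let-7c minus miR-294 differences of 0.02 (95% interval -0.07 to 0.11) and -0.01 (-0.12 to 0.10). Ect2, which directs cytokinesis, differed from mock by -0.04 with let-7c and by -0.48 with miR-294. Bub1 (-0.17), Incenp (-0.15) and Top2a (-0.15) were called lower, and Bub1b (-0.09) and Cenpe (-0.12) were not. The call for Bub1 ended without mock replicate 2 or mock replicate 3 (highest adjusted p = 0.116).

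Polycomb and chromatin genes were called lower in 19 of 35 tested cases (54.3%, against 14.9% of all tested genes) and higher in 3, with 6 below mock on all mimic arrays (17.1%) and 2 above. Those below were the methyltransferase genes Ezh2 (-0.16), Kmt2b (-0.23) and Dnmt1 (-0.15), the dioxygenase genes Tet1 (-0.23) and Tet3 (-0.34), and Smarcc1 (-0.39), a subunit of a chromatin remodeller. Smarcc1 read 10.97, 10.99 and 10.95 with let-7c, 11.42, 11.45 and 11.43 with miR-294, and 11.59, 11.62 and 11.57 with mock, so the fall was mostly that of let-7c. Above mock were Dnmt3l (0.35), a cofactor of DNA methylation, and the Polycomb gene Cbx7 (0.31). The list as a whole was lower with let-7c only, with a median difference of -0.14 against 0.02 with miR-294. Let-7c gave 3 higher and 18 lower calls (against 13.9% and 14.8% of all tested genes). The calls with miR-294 were 9 higher and 13 lower (against 20.7% and 21.1%). Of 12 tested histone genes, the variant genes H2az1 (0.27) and H2az2 (0.24) rose, and H1f1 (-0.33) and Macroh2a1 (-0.24) fell. On each side of mock this was 16.7% of the list, against 6.79% above and 6.59% below over all tested genes.

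**Figure D3:**
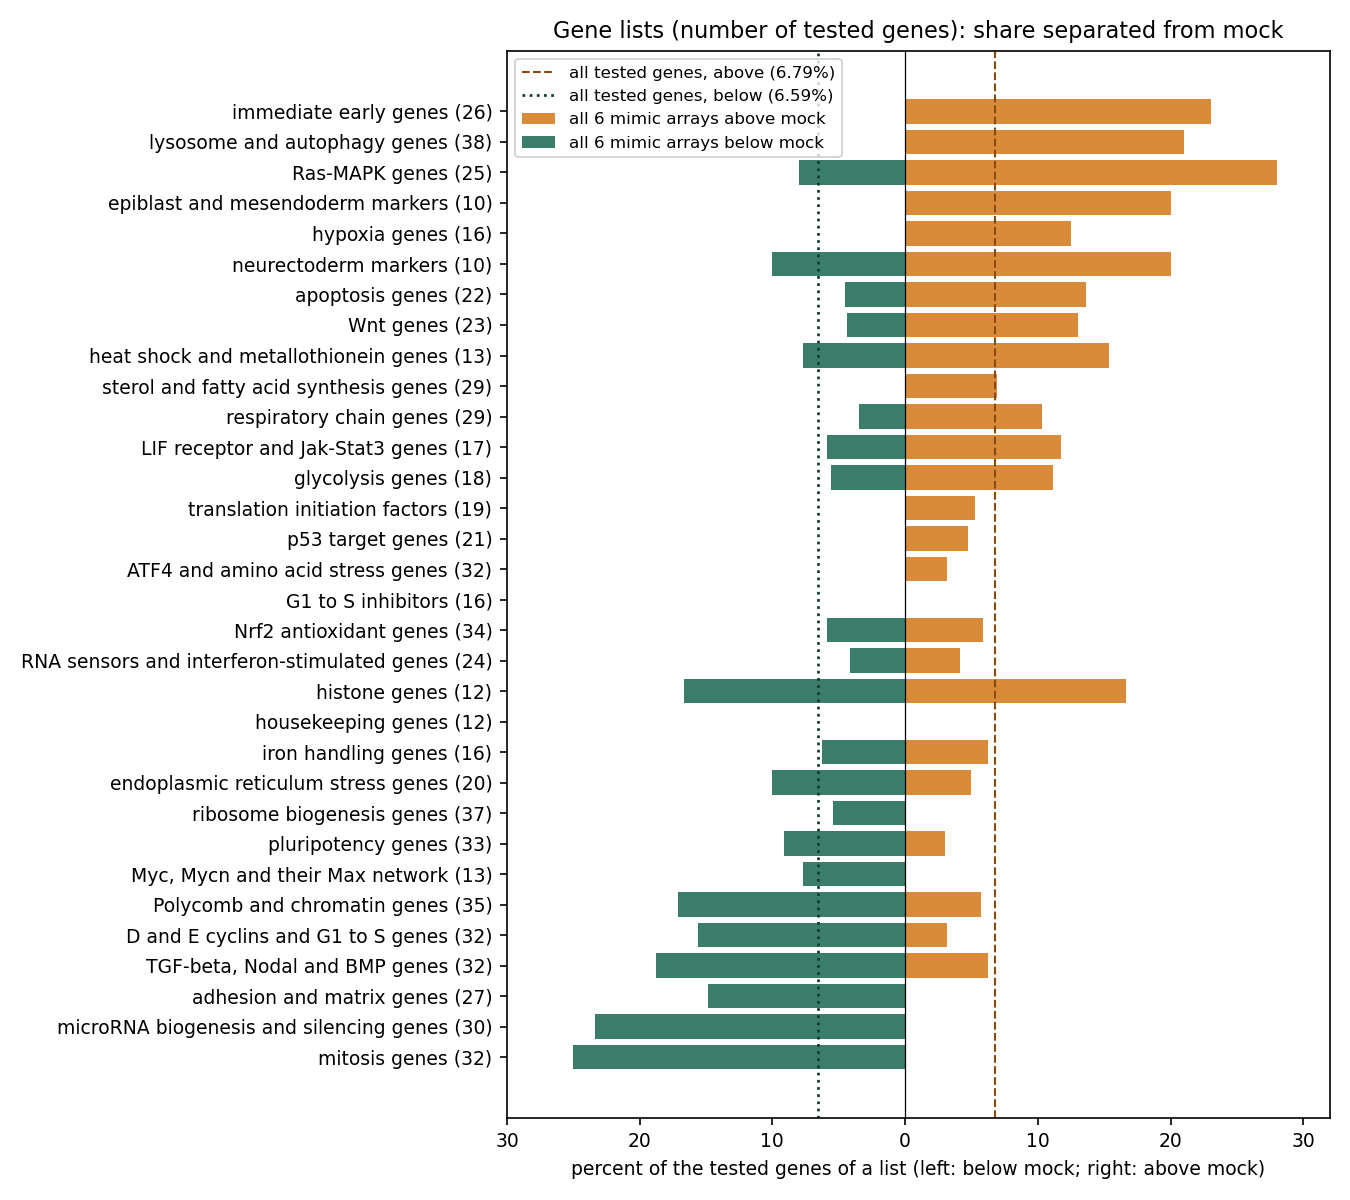
Share of each gene list's tested members (number in brackets) with all 6 mimic arrays above mock (right, orange) or below mock (left, green), for lists with at least 10 tested genes. Lines mark the shares over all tested genes, 6.79% above (dashed) and 6.59% below (dotted). Immediate early (23.1%), lysosome (21.1%) and Ras-MAPK genes (28%) reach furthest right among lists of more than 20 genes, and mitosis (25%) and silencing genes (23.3%) furthest left.

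Core pluripotency factors were not shared. Pou5f1 stood at -0.06, Sox2 at -0.11 and Nanog at -0.27 as pooled differences, and in each the miR-294 arrays overlapped mock. Nanog was called lower with the mimics together (adjusted p = 0.000664), at -0.46 with let-7c and -0.08 with miR-294. Of 33 tested pluripotency genes, Klf5 (0.19) lay above mock and Tfcp2l1 (-0.21), Fgf4 (-0.25) and Il6st below it. The fit called 8 of the 33 higher (24.2%, against 11.8% of all tested genes) and 11 lower (33.3%, against 14.9%). Let-7c alone gave 2 higher and 18 lower calls (against 13.9% and 14.8% of all tested genes). Those of miR-294 alone were 15 higher and 4 lower (against 20.7% and 21.1%). Il6st encodes the signal-transducing subunit of the LIF receptor and fell by 0.14 with let-7c and by 1.07 with miR-294. Of the Stat3 targets downstream of that receptor, Pim3 rose (0.30), and Socs3 (0.19) was called but lost its call under 6 alternatives (highest adjusted p = 0.0965). Dgcr8, whose probes are not known to lie in the deleted part, did not pass the test (-0.02, adjusted p = 0.776).

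Eomes, a mesendoderm and trophoblast factor, read 7.81, 7.97 and 7.93 with let-7c, 7.84, 7.96 and 7.83 with miR-294, and 7.70, 7.53 and 7.35 with mock (0.36 ± 0.07, adjusted p = 0.00347). All mimic arrays lay above mock and overlapped one another. Evx1 (0.30) rose too. These were 2 of 10 tested epiblast and mesendoderm markers (20%, against 6.79% of all tested genes), and 0 lay below mock. The fit called 3 of the 10 higher (30%, against 11.8%) and 1 lower (10%, against 14.9%). Of 22 tested cell death genes, 3 lay above mock (13.6%, against 6.79% of all tested genes) and 1 below it (4.55%, against 6.59%). The fit called 2 higher (9.09%, against 11.8%) and 1 lower (4.55%, against 14.9%). Bid rose (0.33), as did Bcl2 (0.21), the latter by 0.34 with let-7c and by 0.08 with miR-294. Casp2 (-0.67) fell by 0.15 with let-7c and by 1.2 with miR-294. Of the p53 targets, Gadd45a rose (0.35), the only shared gene of 21 tested (4.76% above mock, against 6.79% of all tested genes). Of 23 Wnt genes, Sp5, a Wnt target, rose (0.44), and the smaller differences of Dvl1 (0.16) and Wnt5b (0.15) lost their calls without mock replicate 2 (highest adjusted p over the alternatives 0.0716 and 0.194). Cell adhesion and matrix genes were below mock in 4 of 27 tested cases (14.8%, against 6.59% of all tested genes), a count of 1 after quantile normalization and of 2 after centring on the 75th percentile, among them the integrin genes Itgb3 (-0.29) and Itga6 (-0.15, not called without mock replicate 1).

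Some lists that each mimic moved on its own hardly appear among the shared genes. Ribosome biogenesis genes were called lower with let-7c in 30 of 37 cases (against 14.8% of all tested genes) and higher with miR-294 in 29 (against 20.7%), and only Tsr1 (-0.27) and Pno1 lay below mock in both, Pno1 without passing the test. Translation factor genes gave 1 member of 19, Eif6 (0.32). Of 12 housekeeping genes and 9 feeder fibroblast genes that passed the filter, 0 were shared.

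The let-7c minus miR-294 contrast uses no mock array and is separate from the contrast the rule read. It called 642 of the 1764 shared genes different between the mimics (36.4%), against 50.8% of all tested genes. The rule itself leaves out genes that the mimics move apart, so the lower share describes the choice of genes. Below mock, 406 genes differed between the mimics (46.7%), of which 289 fell further with miR-294 and 117 with let-7c. Above mock, 236 differed (26.4%), 161 rising further with miR-294 and 75 with let-7c. For the other 1122 genes no difference was detected with 3 arrays a group, which does not show that the mimics moved them equally. An example of a large but unequal fall is Prtg, chosen after its values were seen, at -1.28 with let-7c and -0.47 with miR-294.

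**Figure D4:**
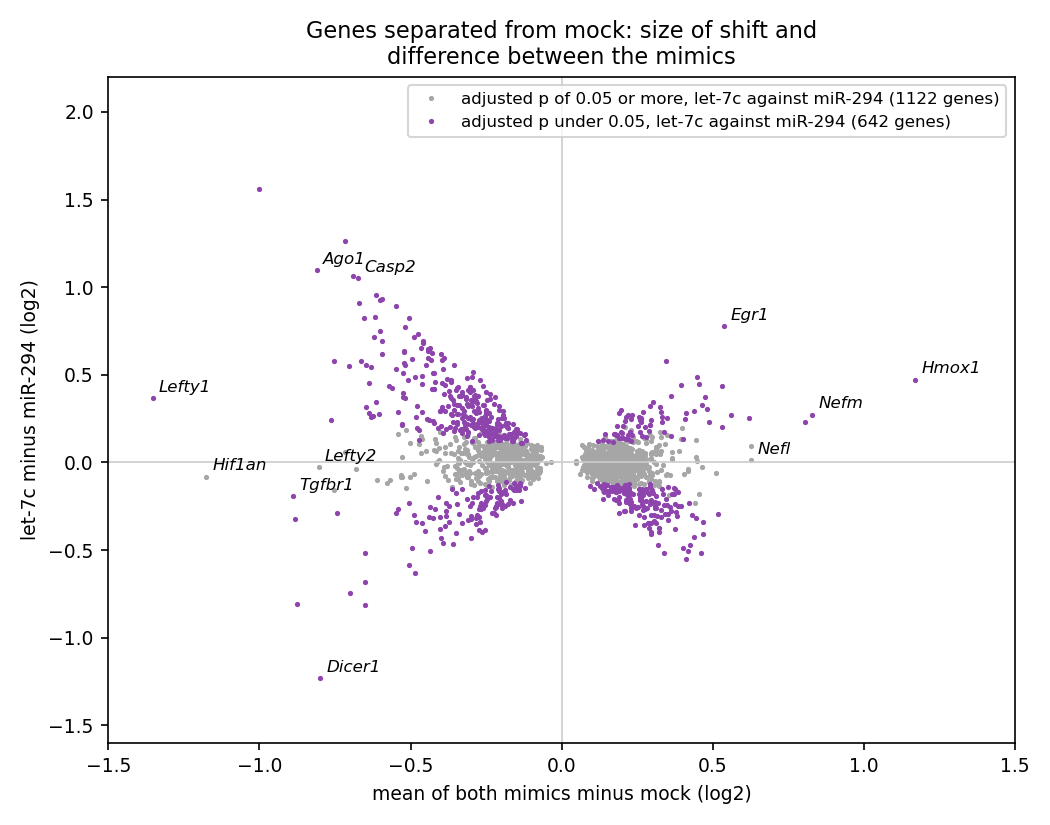
Each point is 1 of the 1764 shared genes, with its pooled difference from mock (horizontal, log2) and the let-7c minus miR-294 difference (vertical, log2). The 642 genes called different between the mimics are purple and the other 1122 are grey. Hif1an (-1.18), Lefty2 (-0.80) and Nefl (0.63) lie near the horizontal axis, where the difference between the mimics is small, and Ago1 and Dicer1 lie far above and below it.

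Shared genes above and below mock differed in gene span, which the rule did not use. Their spans in RefSeq (GRCm38.p6), from start to end with introns, had a median of 11542.5 bases above and 39975 bases below, against 21065 bases over all tested genes. Spans were found for 894 of the 895 and all 869. In the shortest quintile of tested genes, 11.2% lay above mock and 1.82% below, whereas in the longest quintile 3.68% lay above and 10.02% below. Within each quintile of genes by mean level on the mock arrays, the genes below mock had a longer median span than those above. In the brightest quintile it was 43391 against 12329 bases. The dimmest quintile had only 27 genes below mock, and the medians were close, at 12347 against 11904 bases. Genes of that quintile that were not shared had a longer median than either, 14116.5 bases. All genes of a quintile shifted a little too, and the longest quintile did so in opposite ways: its median shift was 0.0161 to 0.0211 on the let-7c arrays and -0.100 to -0.0656 on the miR-294 arrays. The medians of the shortest quintile were 0.0315 to 0.0735 on the let-7c arrays and 0.0793 to 0.106 on the miR-294 arrays. The part of these shifts in single genes' values was not tested.

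**Figure D5:**
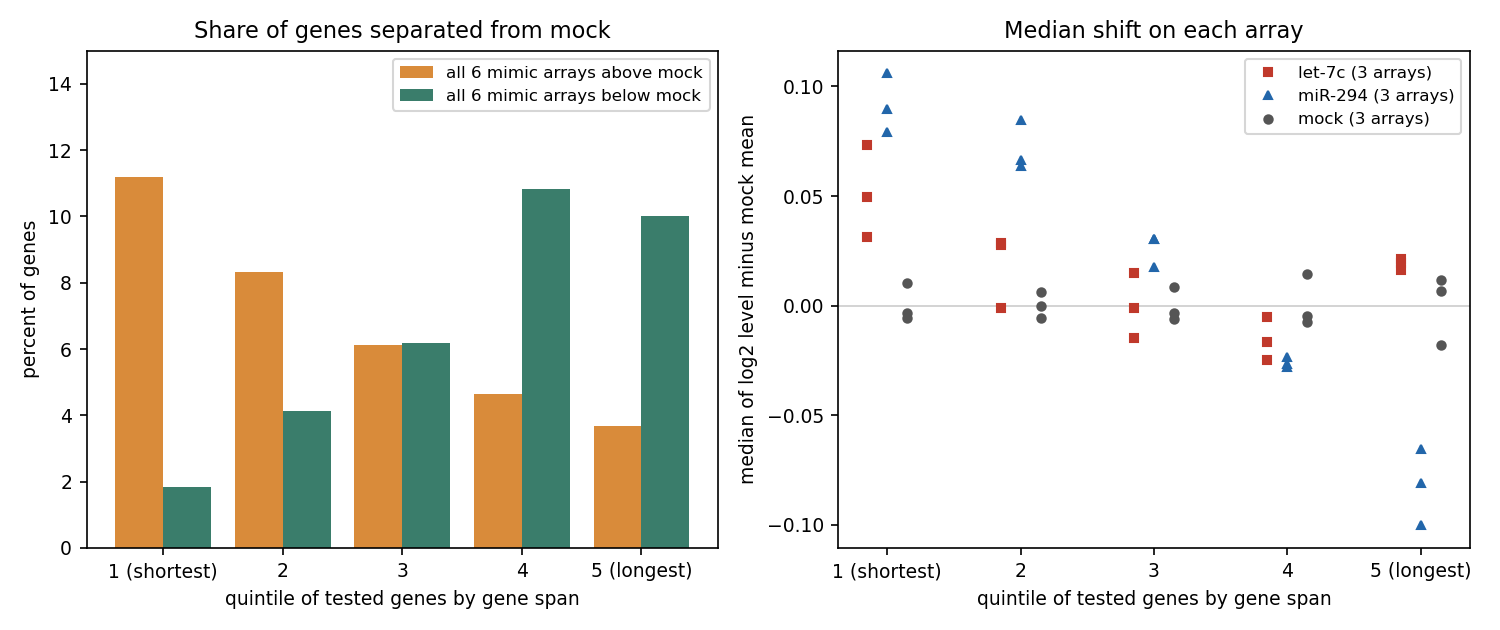
Left, percent of the tested genes in each quintile by RefSeq gene span with all 6 mimic arrays above mock (orange) or below mock (green). Right, the median over the genes of a quintile of the log2 level minus the mock mean, with 1 symbol per array. The share above mock drops from 11.2% to 3.68% and the share below rises from 1.82% to 10.02% between the shortest and the longest quintile, where the arrays of the mimics lie on opposite sides of 0.

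Promoter sequences are shown for Hspa1a and Dusp6, which rose, and for Tgfbr1 and Hif1an, which fell, because these are among the genes that moved most with both mimics and had an entry among RefSeq's promoters. Each is the 250 bases before the start site on build GRCm38.p6. Capitals mark the CCAAT box (CCAAT or its complement) and the GC box (GGGCGG), searched on both strands with no overlap found among those shown. No TATA box (TATAAA) was found in these windows.
Hspa1a, chr17:34972157-34972406, minus strand: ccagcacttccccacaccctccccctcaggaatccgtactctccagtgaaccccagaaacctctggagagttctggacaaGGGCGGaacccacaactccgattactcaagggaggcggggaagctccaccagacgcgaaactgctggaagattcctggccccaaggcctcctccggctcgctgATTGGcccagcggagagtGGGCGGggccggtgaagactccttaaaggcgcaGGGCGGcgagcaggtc
Dusp6, chr10:99262981-99263230, plus strand: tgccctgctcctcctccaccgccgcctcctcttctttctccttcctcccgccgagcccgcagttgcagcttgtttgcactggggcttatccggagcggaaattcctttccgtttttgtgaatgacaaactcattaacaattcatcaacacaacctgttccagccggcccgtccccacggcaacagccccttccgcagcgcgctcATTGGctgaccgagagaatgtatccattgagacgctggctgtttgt
Tgfbr1, chr4:47352972-47353221, plus strand: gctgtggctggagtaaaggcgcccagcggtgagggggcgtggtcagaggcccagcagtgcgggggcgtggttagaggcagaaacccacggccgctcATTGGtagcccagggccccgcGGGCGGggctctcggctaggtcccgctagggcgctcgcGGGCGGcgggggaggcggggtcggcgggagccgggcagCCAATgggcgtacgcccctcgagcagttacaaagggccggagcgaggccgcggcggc
Hif1an, chr19:44562604-44562853, plus strand: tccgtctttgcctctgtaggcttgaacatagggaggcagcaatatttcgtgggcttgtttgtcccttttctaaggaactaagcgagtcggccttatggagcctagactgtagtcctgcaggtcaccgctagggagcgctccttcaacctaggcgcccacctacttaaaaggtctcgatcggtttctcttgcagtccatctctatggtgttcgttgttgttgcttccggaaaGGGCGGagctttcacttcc
Hspa1a held 3 GC boxes and 1 CCAAT box, Tgfbr1 2 of each, Dusp6 1 CCAAT box and Hif1an 1 GC box. Of 10433 promoters of tested genes, 36.0% held a CCAAT box, 58.8% a GC box and 6.57% a TATA box. These promoters cover 79.1% of the tested genes, 80.9% of those above mock and 80.6% of those below. A CCAAT box was in 33.8% of the promoters above and 39.7% of those below, and a GC box in 58.0% and 66.0%. For the TATA box these shares were 7.60% and 5.71%. Whether shared genes differ from the rest in these boxes was not tested.

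The labelled cell type was checked against its markers. All 8 ES cell markers passed the filter, and 0 were shared while 3 were called. The mean over the markers was 11.797 to 11.818 on the let-7c arrays, 11.935 to 11.986 on mock and 12.065 to 12.130 on miR-294. It was thus high on every array, but lower than mock with let-7c and higher with miR-294. Of 8 feeder fibroblast markers 5 passed the filter, with means of 6.70 to 7.23 over the arrays, and 0 were shared. Dcn, Lum and Postn were dim. Markers of primitive endoderm passed in 3 of 7 cases, of trophoblast in 4 of 6 and of neurectoderm in 3 of 5. In each of these 0 were shared and 1 was called, namely Sox7 (0.21), Gata3 (0.28) and Neurog2 (0.15), all higher. Longer lists of such markers held shared genes. Of 7 tested primitive endoderm genes, 2 were called higher and 0 lower (5 and 0 at an unadjusted p under 0.05 in limma), and Hnf4a, a nuclear receptor gene, lay above mock (0.18). Its call ended without miR-294 replicate 3 or any 1 of the mock arrays, among other settings (highest adjusted p = 0.0971). Of 8 tested trophoblast genes, 2 were called higher and 1 lower, and Eomes lay above mock. Of the 10 neurectoderm genes described above, 4 were called higher and 2 lower. The shares called higher and lower were 28.6% and 0% for primitive endoderm, 25% and 12.5% for trophoblast, and 40% and 20% for neurectoderm genes. Over all tested genes they were 11.8% and 14.9%. The part of such cells in the results was not tested. In bulk RNA, more cells of a type and more RNA per cell cannot be told apart. Within groups, array pairs had correlations of at least 0.995 over the tested genes, and a gene's standard deviation had a median of 0.0566 on the mock arrays, 0.0640 with miR-294 and 0.0676 with let-7c.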

How the data were processed

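RNA from 9 samples was measured on 1-colour arrays. Per the submitters' processing notes, the authors used GCRMA, which corrects background, normalizes and summarises probes; the sources used here give no version. No header states the scale of the deposited intensities, and log2 was assumed from their range (2.54 to 15.0). Array medians were 7.36 to 7.41. Of 35557 probe sets, 21789 had 1 gene symbol in GEO's annotation, 1621 several and 12147 none. Each of 19938 genes was read from its brightest probe set. Genes with at least 3 arrays above their own array's 40th percentile were tested (13182).

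Differences were tested with limma 3.58.1 in R 4.3.3 (lmFit, eBayes) with 3 group means, 6 residual degrees of freedom and Benjamini-Hochberg adjustment over all tested genes, two-sided, and called at an adjusted p under 0.05. All intervals are 95%. The procedure was tested on simulated data. Same-numbered mimic and mock arrays deviated together (correlations 0.13 to 0.42 for all 6 pairs). The replicate number thus pairs them, as a property of the values that no label explains. The pairing is loose for let-7c replicate 3, which had 0.15 with mock replicate 2 and 0.13 with mock replicate 3. For let-7c and miR-294 the lowest was 0.03, and these were not taken as paired. Unless the replicate block is named, the p-values and intervals come from the main fit, which leaves the replicate number out. The number of arrays limits the precision.

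Named genes are the 15 that rose most and the 15 that fell most with the mimic nearer to mock, up to 4 shared and called genes per list, a fixed set of reference genes, and the genes at the edge of the rule; further members of a list named beside its count, and Fos and Nodal, were added. Predicted and clone names were left out. The 36 lists held 894 entries, of which 829 matched and 778 were tested. The members, lists and rules were chosen with earlier results of these data known.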

Additional observations from a re-analysis of the deposited data

Results flagged for a closer look

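Of the 30 genes with the largest shared shifts, 12 moved by amounts that differed between the mimics in the let-7c minus miR-294 contrast (limma, adjusted p under 0.05). Among genes that rose, let-7c minus miR-294 was 0.47 for Hmox1, 0.27 for Nefm, 0.23 for Wdr45, 0.25 for Urah, 0.20 for Ndrg1 and 0.27 for Nlrc4, so all 6 rose further with let-7c. Among genes that fell, it was 0.37 for Lefty1, 0.24 for Slc35b4 and 0.26 for Ccnd1, which fell further with miR-294, and -0.19 for Tgfbr1, -0.32 for Plagl2 and -0.29 for Prdm4, which fell further with let-7c.

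Probe sets without a gene symbol were outside the comparison. Of the 7499 that passed the same filter, 433 were called higher and 379 lower with the mimics together, and 370 lay above and 285 below mock on all mimic arrays. Their p-values were adjusted over all probe sets that passed. As shares, all of these counts are smaller than those of the tested genes. There, 11.8% were called higher and 14.9% lower, and 6.79% lay above and 6.59% below mock.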

How the results depend on the processing

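With the 6 mimic arrays fitted as 1 group, 64 genes were called higher and 136 lower, since the difference between the mimics then counts as spread. Of 113 named genes that were called, 78 lost their call in that fit, among them Mylpf, Dusp6, Hspa1a and Prdm1 of the 30 with the largest shared shifts; the adjusted p ranges given beside single genes leave it out. Leaving out 1 array gave 949 to 1561 higher calls and 1352 to 2001 lower calls, the fewest without mock replicate 2. With the replicate block, 2041 genes were called higher and 2294 lower; the block moved the list counts given beside their results and ended no call of a named gene. The other alternatives (normalization, filter, probe set rule, prior) kept the counts of calls within 1.5 times. Genes above mock numbered 617 to 1324 and genes below 781 to 1152 over the alternatives; fewer arrays make the rule easier to meet. Shared genes called different between the mimics numbered 545 to 827. Over all alternatives, no named gene's pooled difference changed sign with a call. Of the lists' median differences, 552 of the values under alternatives moved by less than their spread within groups and 23 by more.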
